A study of Papio anubis with 60 samples.

Results

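H3K4me3 and H3K27me3 were compared with each other in induced pluripotent stem cells (iPSC) of the olive baboon, Papio anubis, on chromosomes 1 to 20. The members are all peaks of the iPSC lists of both marks on these chromosomes, taken by chromosome, start and end: 308062 H3K4me3 peaks and 131632 H3K27me3 peaks, of 330423 and 158859 on all chromosomes and of 2116963 peaks in the 8 lists of the series. No peak of a list overlapped another of the same list, so each peak is 1 region. The series mapped histone marks by chromatin immunoprecipitation with sequencing (ChIP-seq) in embryonic stem cells (ESC) and iPSC, with 6 iPSC libraries per mark, 3 replicates of each of the lines 160-2 and M14939#3. These cells are made by reprogramming and were grown on feeder cells without a treatment in the labels. The list of each mark does not separate lines or replicates. There are therefore no replicate lists, no test was possible, and 95% Wilson intervals cover counting error only. Overlap shares, pair and cluster values were set beside their mean over 100 circular shifts, in which 1 list was moved along its chromosome by at least 1 Mb. Values by cluster span, position, peak strength or H3K27ac by width have no shifted level and are descriptions of the lists.

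H3K4me3 is the trimethyl mark that methyltransferases of the COMPASS and MLL family place at promoters, above all at those rich in CpG. H3K27me3 is placed by Polycomb repressive complex 2 and is known for the silencing of developmental genes. In pluripotent cells both marks often lie over the same promoter, a state called bivalent and held to keep such genes silent but poised. H3K9me3 marks heterochromatin and silenced repeats, and H3K27ac active promoters and enhancers. The H3K27me3 regions were split by the iPSC H3K9me3 list: a region is on H3K9me3 where it shared at least 1 bp with one of its 209447 autosomal regions, and off H3K9me3 otherwise.

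H3K4me3 regions were many and narrow, and H3K27me3 regions fewer and wider. The H3K4me3 regions covered 140.7 Mb, 5.42% of the autosomes, with a median width of 290 bp and a widest of 15.5 kb. The H3K27me3 regions covered 90.1 Mb (3.47%), with a median of 442 bp and a widest of 125.5 kb. Widths of at least 5 kb were found in 267 H3K4me3 regions and in 997 H3K27me3 regions. The smallest gap between neighbours was 102 bp in the H3K4me3 list and 405 bp in the H3K27me3 list, and the lists differ in format, narrow peaks for H3K4me3 and broad peaks for H3K27me3. Widths, nesting and reach between the marks therefore also carry the difference between the 2 ways of peak calling, whose part was not tested. Most of the H3K27me3 list lay on H3K9me3: 100954 regions (76.7%) were on it, with a median width of 460 bp, and 30678 (23.3%) were off it, with a median of 388 bp. Of the regions on H3K9me3, 70.2% lay wholly inside it.

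H3K27me3 regions off H3K9me3 mostly carried H3K4me3, and those on H3K9me3 mostly did not. Off H3K9me3, 17906 of 30678 regions (58.4%, interval 57.8 to 58.9) overlapped H3K4me3, against 11.8% in shifted lists (range 11.3 to 12.6). On H3K9me3, 18693 of 100954 (18.5%, interval 18.3 to 18.8) did so, against 11.6% (range 11.2 to 12.1). The shares were thus 4.93 and 1.60 times their shifted levels. Counted in sequence, H3K4me3 covered 54.2% of the H3K27me3 base pairs off H3K9me3 (shifted 5.81%) and 15.1% of those on it (shifted 5.60%). The shared sequence was of like size in both classes, 11.4 Mb and 10.4 Mb, although the class on H3K9me3 held 69.04 Mb of H3K27me3 and the other 21.02 Mb. On each of the 20 autosomes the share was higher off H3K9me3 than on it. It was 58.02% ± 3.00 (SD over 20 chromosomes) off H3K9me3, from 53.3% on chromosome 8 to 65.6% on chromosome 16, and 18.9% ± 2.55 on H3K9me3, from 14.5% to 25.7% on the same chromosomes. With strict peaks, at a −log10 q of at least 10 for H3K4me3 and 3 for the other marks, the share on H3K9me3 was 10.5%.

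From the side of H3K4me3, H3K27me3 was the exception. No H3K27me3 was found on 260785 of 308062 H3K4me3 regions (84.7%). H3K27me3 off H3K9me3 lay on 7.15% (interval 7.06 to 7.24, shifted 1.39%) and H3K27me3 on H3K9me3 on 8.37% (interval 8.27 to 8.47, shifted 4.40%), with 534 regions touching both kinds. By this ratio to the shifts, 5.14 against 1.90, the 2 kinds differed as they did from the H3K27me3 side. With firm peaks, at a −log10 q of at least 5 for H3K4me3 and 2 for the other marks, the share with H3K27me3 on H3K9me3 was 5.39%, with strict peaks 2.78%, and with peaks joined within 3 kb 12.9%.

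Overlap rose with the width of H3K27me3 in both classes, at narrower widths off H3K9me3 than on it. Off H3K9me3, H3K4me3 lay on 43.7% of the H3K27me3 regions narrower than 250 bp (shifted 7.93%), 71.4% of those of 500 to 1000 bp (12.7%), 92.4% of those of 1 to 2 kb (17.7%) and 98.8% of those of 2 to 5 kb (27.5%). Only 17 of the 1741 regions of at least 2 kb off H3K9me3 had no H3K4me3. On H3K9me3 the shares at these widths were 11.8% (7.59%), 18.8% (12.1%), 30.2% (17.1%) and 49.1% (26.5%). At 5 to 10 kb, 99.6% of 283 regions off H3K9me3 overlapped H3K4me3 (interval 98.03 to 99.9, shifted 44.6%), against 82.8% of 443 on it (79.1 to 86.1, shifted 44.3%). At 10 kb or more the shares met, with all 69 regions off H3K9me3 and 201 of the 202 on it. A wide region has room for any peak, as the shifted levels show, but the sequence covered tells the same order: H3K4me3 covered 10.2% of the sequence of regions of 1 to 2 kb on H3K9me3, 46.4% at 5 to 10 kb and 68.7% at 10 kb or more, with shifted levels between 5.47% and 5.87%. Off H3K9me3 the values were 59.0%, 71.3% and 76.9%.

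**Figure D1:**
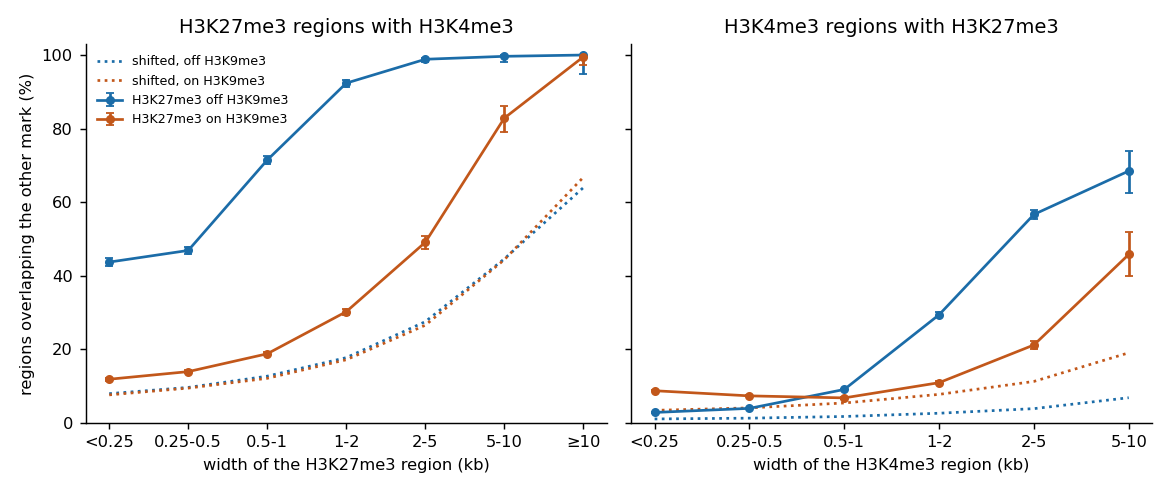
Percent of regions that overlap the other mark (vertical axis) by the width of the region in kb (horizontal axis), for H3K27me3 regions (left) and H3K4me3 regions (right), with H3K27me3 split by H3K9me3. Points carry 95% Wilson intervals and dotted lines are means over 100 circular shifts; H3K27me3 regions of 1 to 2 kb reach 92.4% off H3K9me3 and 30.2% on it, while the shifted lines of the left panel nearly coincide.

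Wide H3K4me3 regions were those that most often overlapped H3K27me3 off H3K9me3, over a part of their length. Of an overlapped region it covered a median of 29.0% at 1 to 2 kb and 28.8% at 2 to 5 kb. The median was 99.3% below 250 bp and 60.6% at 5 to 10 kb. The share that overlapped was 2.81% of the H3K4me3 regions narrower than 250 bp (shifted 1.04%), 9.06% at 500 to 1000 bp (1.71%), 29.4% at 1 to 2 kb (2.60%) and 56.7% at 2 to 5 kb (3.85%). At 5 to 10 kb it was 68.5% of 260 regions (interval 62.6 to 73.8, shifted 6.82%). For H3K27me3 on H3K9me3 the order was different at the narrow end. It lay on 8.72% of the H3K4me3 regions narrower than 250 bp (shifted 3.38%), on 6.77% of those of 500 to 1000 bp (5.39%) and on 21.2% of those of 2 to 5 kb (11.2%). By raw share, H3K4me3 regions below 500 bp thus met H3K27me3 on H3K9me3 more often than H3K27me3 off it, and above 500 bp the reverse held. By ratio to the shifts the order did not turn, and the ratio was higher off H3K9me3 in each width class. It was 2.69 off against 2.58 on H3K9me3 below 250 bp, and 3.11 against 1.81 at 250 to 500 bp.

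The part of an H3K27me3 region that H3K9me3 covered went with the overlap in a graded way. At a width of 1 to 2 kb, H3K4me3 lay on 92.4% of the regions free of H3K9me3 (interval 91.3 to 93.3), on 81.5% of those with under 25% cover (77.2 to 85.1) and on 65.5% of those with 25 to 50% (61.3 to 69.5). It lay on 37.1% at 50 to 75% cover (33.9 to 40.4), on 31.3% at 75 to under 100% (29.4 to 33.3) and on 24.9% of those wholly covered (24.04 to 25.9), with shifted levels between 17.02% and 18.2% in all 6 groups. No 2 of these 6 intervals overlapped, but they cover counting error only and are no test of a difference. Wide regions with little H3K9me3 gave values near those without it: of 463 regions of at least 5 kb that touched H3K9me3 with under 50% cover, all overlapped H3K4me3, which covered 68.7% of their sequence, against 73.2% in the 352 such regions off H3K9me3. Of 107 regions of at least 5 kb wholly inside H3K9me3, 54 (50.5%, interval 41.1 to 59.8) overlapped H3K4me3, an interval that holds the shifted 46.2%, and H3K4me3 covered 9.97% of their sequence. Within the class on H3K9me3, regions of at least 10 kb had a median H3K9me3 cover of 7.18%, and each width class under 5 kb had one of 100%.

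**Figure D2:**
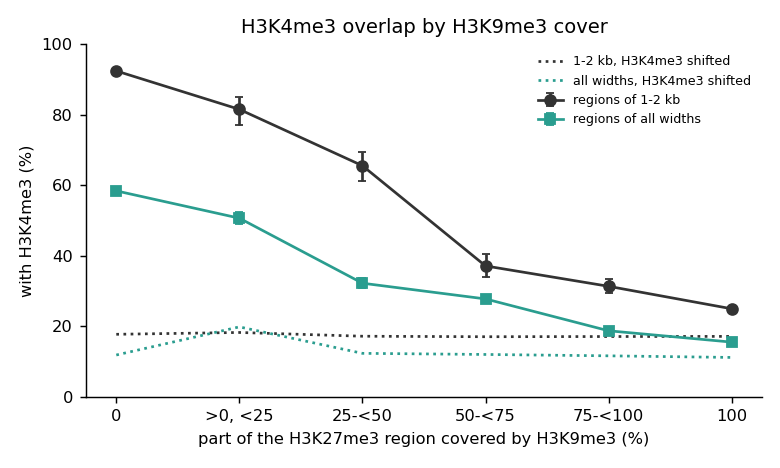
Percent of iPSC H3K27me3 regions that overlap H3K4me3 (vertical axis) by the percent of the region that H3K9me3 covers (horizontal axis), for regions of 1 to 2 kb and of all widths. Bars are 95% Wilson intervals and dotted lines means over 100 shifts; the 1 to 2 kb regions fall from 92.4% without H3K9me3 to 24.9% wholly inside it, and the shifted line stays between 17.02% and 18.2%.

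The sequence of the regions on H3K9me3 that carried H3K4me3 was pooled by width. In wide regions a smaller share of the H3K4me3 sequence than of the rest lay in H3K9me3. In all, 51.5% of the sequence with both H3K27me3 and H3K4me3 lay in H3K9me3, against 72.9% of the sequence outside H3K4me3 in the same regions. In regions of 2 to 5 kb the values were 43.4% and 74.0%, and in regions of at least 5 kb 16.0% and 30.1%. In regions narrower than 500 bp they were 89.7% and 85.9%, so at that width the order was reversed and the gap small. These pooled shares do not show how the marks lie inside single regions, which was not tested. Of all regions of 2 to 5 kb, those touching H3K9me3 with under 50% cover had H3K4me3 on 59.9% of their sequence. Those wholly inside H3K9me3 had it on 5.72%.

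Nesting went in opposite directions in the classes. Off H3K9me3, 7162 of the 17906 H3K27me3 regions with H3K4me3 (39.998%, interval 39.3 to 40.7) lay wholly inside 1 H3K4me3 region, and 4591 of the 22027 H3K4me3 regions with H3K27me3 (20.8%, interval 20.3 to 21.4) lay wholly inside 1 H3K27me3 region. On H3K9me3, 13.5% of the H3K27me3 regions with H3K4me3 lay inside H3K4me3 (interval 13.03 to 14.01), and 48.9% of the H3K4me3 regions with H3K27me3 lay inside H3K27me3 (48.3 to 49.5). Among the 23766 overlapping pairs off H3K9me3, 30.1% had H3K27me3 inside, 19.3% had H3K4me3 inside and 50.5% were staggered, each mark reaching out on 1 side. In shifted lists these were 15.4%, 34.3% and 50.3%, so both kinds of nesting lay outside the range over shifts, in opposite directions. Among the 25949 pairs on H3K9me3, 9.73% had H3K27me3 inside, 48.6% had H3K4me3 inside and 41.7% were staggered, against 13.9%, 33.7% and 52.4% in shifted lists. Nesting follows how peaks are joined: within 1 kb, 62.0% of the overlapped H3K27me3 regions off H3K9me3 lay inside H3K4me3 and 7.61% of the overlapped H3K4me3 regions inside H3K27me3, and within 3 kb 70.8% and 5.999%. With strict peaks 33.8% of the H3K4me3 regions lay inside H3K27me3 off H3K9me3, above the 27.8% for the converse, so the order of the 2 shares off H3K9me3 turned; on H3K9me3, 26.4% of the H3K27me3 regions lay inside H3K4me3 after joining within 3 kb.

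**Figure D3:**
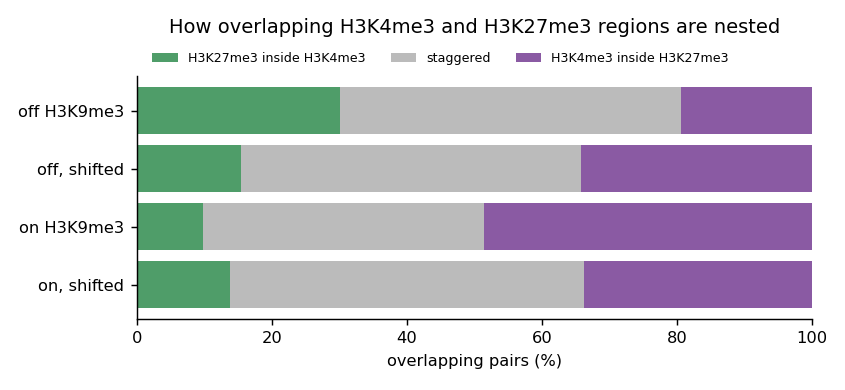
Overlapping pairs of an H3K4me3 and an H3K27me3 region in percent (horizontal axis), split into H3K27me3 inside H3K4me3, staggered and H3K4me3 inside H3K27me3, for pairs off and on H3K9me3 and for the mean over 100 shifts of H3K4me3. H3K27me3 inside H3K4me3 makes up 30.1% off H3K9me3 and 9.73% on it, and the shifted rows are nearly alike at 15.4% and 13.9%.

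Nesting was set against shifted lists width by width, since a narrow region lies inside a wider one more often in any case. Off H3K9me3, 68.9% of the overlapped H3K27me3 regions narrower than 250 bp lay inside H3K4me3 (shifted 45.4%), 31.9% of those of 500 to 1000 bp (11.2%), 15.6% of those of 1 to 2 kb (3.26%) and 7.28% of those of 2 to 5 kb (0.398%). These shares were all above their shifted levels. On H3K9me3 they were 40.4% (shifted 45.3%), 6.86% (10.6%), 2.70% (3.08%) and 1.48% (0.461%), so below 2 kb they lay under the shifted level. For H3K4me3 inside H3K27me3 the classes went the other way. On H3K9me3, 58.1% of the overlapped H3K4me3 regions narrower than 250 bp lay inside (shifted 58.7%), 37.3% of those of 500 to 1000 bp (17.9%), 29.9% of those of 1 to 2 kb (6.88%) and 34.6% of those of 2 to 5 kb (2.26%). The narrowest were thus near the shifted level and the wider ones above it. Off H3K9me3 the shares were 49.5% (58.7%), 14.9% (20.02%), 7.02% (8.67%) and 8.28% (2.62%), under the shifted level below 2 kb and above it at 2 to 5 kb. Counted over all regions below 2 kb, overlapped or not, neither nesting was rarer than in shifted lists. H3K4me3 inside H3K27me3 off H3K9me3 made up 1.39% below 250 bp (shifted 0.612%) and 2.06% at 1 to 2 kb (0.225%). H3K27me3 inside H3K4me3 on H3K9me3 made up 4.79% (3.44%) and 0.815% (0.528%). An H3K27me3 region of at least 10 kb held several H3K4me3 regions, 8.54 on average off H3K9me3 (up to 22) and 11.5 on it (up to 99), among those with any.

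How far each mark reached past the other was measured in clusters, that is in sets of H3K4me3 and H3K27me3 regions linked by overlap. At each end of a cluster the outer end of H3K27me3 was set against that of H3K4me3, so that a positive distance means that H3K27me3 reached further out. Off H3K9me3, H3K4me3 was the outer mark at 70.3% of the ends of 15636 clusters (shifted 47.0%). The median distance there was −127 bp, against 28 bp in shifted lists (range 17 to 41). Where H3K4me3 was the outer mark it reached a median of 343 bp further (90th percentile 1227 bp), and where H3K27me3 was, 232 bp (825 bp). The shifted medians were 243 bp for H3K4me3 and 300 bp for H3K27me3. H3K4me3 lay outermost at both ends of 48.7% of these clusters (shifted 20.9%), H3K27me3 at both ends of 7.94% (26.9%) and each at 1 end of 42.8% (52.0%). On H3K9me3, H3K27me3 was the outer mark at 58.2% of the ends of 18525 clusters (shifted 54.0%). The median distance there was 25 bp, just under the range of the shifts (29 to 44 bp, mean 37.9). There H3K27me3 reached a median of 271 bp further where it was the outer mark (90th percentile 1013 bp), and H3K4me3 80 bp (654 bp). Both reaches were shorter than in shifted lists, at 302 bp for H3K27me3 and 237 bp for H3K4me3. H3K27me3 lay outermost at both ends of 34.4% of these clusters (shifted 27.4%) and H3K4me3 at both ends of 17.5% (19.3%). Ends that fell within 100 bp of each other made up 26.6% off H3K9me3 and 41.5% on it. The size of the reach depends on joining: with peaks joined within 1 kb the median distance was −642 bp off and 41 bp on H3K9me3, and within 3 kb −1083.5 bp off H3K9me3.

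**Figure D4:**
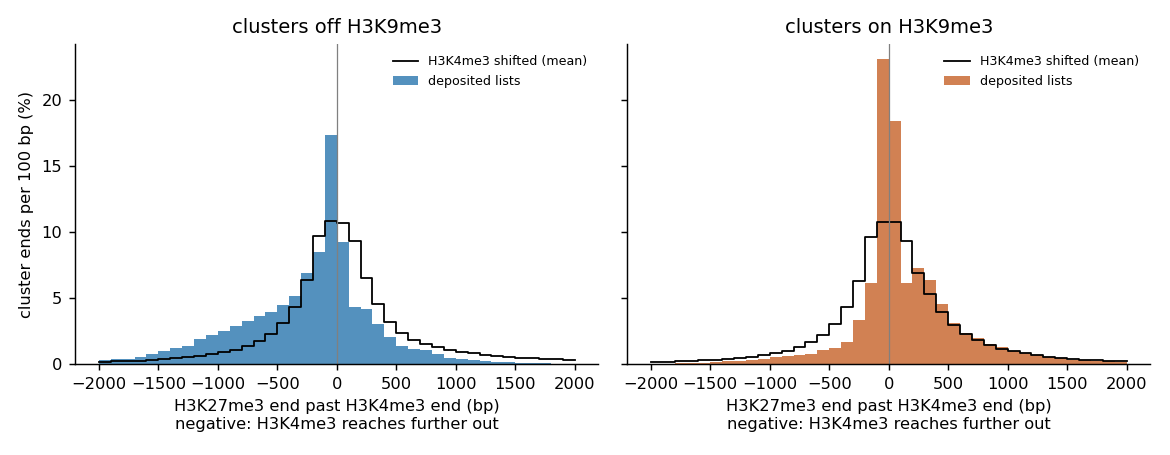
Distance in bp from the outer H3K4me3 end to the outer H3K27me3 end of each cluster end (horizontal axis), as percent of cluster ends per 100 bp (vertical axis), for clusters off H3K9me3 (left) and on it (right); the line is the mean over 100 shifts of H3K4me3, and ends beyond 2 kb are not drawn. Off H3K9me3 the bars lean to negative distances (median −127 bp), and on H3K9me3 they crowd near 0 (41.5% within 100 bp) with a tail to positive ones.

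Narrow and wide clusters differed in which mark was the outer one. Off H3K9me3, the median distance was −216 bp in clusters whose H3K27me3 spanned less than 250 bp, −74 bp at 1 to 2 kb, 0 bp at 2 to 5 kb and 82 bp at 5 to 10 kb. H3K27me3 lay outermost at both ends in 0.966%, 10.5%, 24.4% and 33.5% of these. On H3K9me3 the medians at the same spans were −16, 272, 363 and 297 bp. Read by the span of H3K4me3, clusters off H3K9me3 had a median of 29 bp below 250 bp, −319 bp at 1 to 2 kb, −488 bp at 2 to 5 kb and −4 bp at 10 kb or more, where the H3K27me3 span had a median of 13815 bp. The part of a cluster under both marks had a median of 18.2% where H3K27me3 off H3K9me3 spanned less than 250 bp and 73.6% where it spanned 10 kb or more. A wider span of one mark makes that mark more likely to be the outer one, so these orders follow in part from the grouping.

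Over all clusters, the sequence under both marks was about the same and the rest was split in opposite ways. Off H3K9me3, 37.9% of the sequence of clusters was under both marks (10.8 Mb), 44.97% under H3K4me3 alone and 17.1% under H3K27me3 alone. On H3K9me3, 41.1% was under both (11.1 Mb), 14.7% under H3K4me3 alone and 44.1% under H3K27me3 alone. Shifted lists gave 20.1% and 21.4% under both. Under H3K4me3 alone they gave 25.4% off H3K9me3 and 26.4% on it, and under H3K27me3 alone 54.6% and 52.3%. H3K27me3 alone thus lay below its shifted level in both classes. H3K4me3 alone lay above its shifted level off H3K9me3 and below it on H3K9me3. The lead of H3K27me3 alone over H3K4me3 alone on H3K9me3 was also present in shifted lists. A pair of single regions made up 72.1% of the clusters off H3K9me3, with a median H3K4me3 width of 975 bp and a median H3K27me3 width of 379 bp. On H3K9me3 such pairs made up 79.5%, with medians of 245 and 527 bp. In shifted pairs the medians were 378 and 455 bp off H3K9me3, and 365 and 537 bp on it, so the H3K4me3 regions of the clusters stood apart from shifted ones more than the H3K27me3 regions did.

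Beyond its edges, H3K4me3 of 2 to 5 kb was flanked by H3K27me3 that thinned out over several kb. H3K27me3 off H3K9me3 covered 21.7% of the last 250 bp inside the edge, 17.6% of the first 250 bp outside, 8.997% at 2 kb, 5.92% at 5 kb and 4.57% at 10 kb, against 0.811% of the autosomes. H3K27me3 on H3K9me3 fell from 12.5% to 11.6%, 8.36%, 6.68% and 5.32%, against an autosomal 2.66%, and in every 250 bp bin from 3 to 20 kb it covered more than the other kind. H3K9me3 went the other way, from 2.25% in the first 250 bp outside to 4.38% at 10 kb, below its 6.96% of the autosomes. Around H3K4me3 regions narrower than 500 bp, H3K27me3 off H3K9me3 covered 1.99% of the first 250 bp outside and H3K27me3 on H3K9me3 4.83%.

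Inside H3K27me3 regions of 2 to 5 kb off H3K9me3, H3K4me3 was densest in the middle. With the way from each edge to the middle cut into 5 equal steps, it covered 60.5% of the outermost step and 69.5% of the innermost. At 5 to 10 kb the values were 60.02% and 80.4%. On H3K9me3 they were 18.2% and 21.7% at 2 to 5 kb, and 33.8% and 57.0% at 5 to 10 kb. At 1 to 2 kb the order turned in both classes, with 62.02% in the outermost and 56.9% in the innermost step off H3K9me3, and 11.3% and 9.64% on it. Outside regions of 2 to 5 kb off H3K9me3, H3K4me3 still covered 46.3% of the first 250 bp, 31.7% at 2 kb and 14.6% at 10 kb, above its 5.42% of the autosomes.

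**Figure D5:**
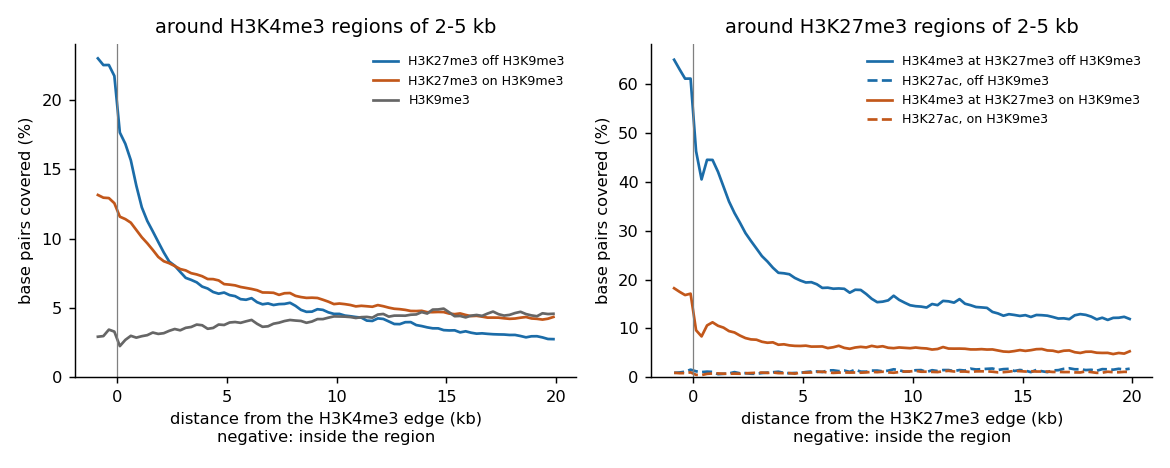
Percent of base pairs covered (vertical axis) by distance in kb from a region's edge (horizontal axis, negative inside, both sides pooled, bins of 250 bp), for H3K27me3 and H3K9me3 around H3K4me3 regions of 2 to 5 kb (left) and for H3K4me3 and H3K27ac around H3K27me3 regions of 2 to 5 kb (right). Just outside H3K4me3, H3K27me3 off H3K9me3 covers 17.6% and decays to 4.57% at 10 kb; H3K4me3 covers 46.3% just outside H3K27me3 off H3K9me3.

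H3K27me3 regions without H3K4me3 differed in how near the next H3K4me3 region lay. The 12772 regions off H3K9me3 without H3K4me3 had their nearest H3K4me3 region at a median of 2.10 kb, against 4.76 kb in shifted lists, and 32.0% had one within 1 kb (shifted 15.9%). The 82261 regions on H3K9me3 without H3K4me3, 62.5% of the whole H3K27me3 list, had it at a median of 5.97 kb (shifted 4.89 kb), and 10.03% had one within 1 kb (shifted 15.4%). The former thus lay nearer to H3K4me3 than shifted regions and the latter further away.

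H3K27me3 regions with H3K4me3 had a higher fold enrichment over background, the authors' value for each peak, than those without. Off H3K9me3 the median folds were 2.79 with H3K4me3 and 2.47 without, and on H3K9me3 2.89 and 2.71. At 500 to 1000 bp they were 2.76 and 2.50 off H3K9me3, and 2.85 and 2.72 on it. When the regions off H3K9me3 were ranked by fold into 5 equal groups, H3K4me3 lay on 29.1% of the weakest (interval 28.0 to 30.2) and 83.6% of the strongest (82.6 to 84.5). Median width rose along with it, from 325 to 628 bp, and the part of width in this rise was not tested. On H3K9me3 it lay on 11.01% of the weakest and 31.3% of the strongest, with median widths of 389 and 442 bp. H3K4me3 regions with H3K27me3 off H3K9me3 alone were wider and stronger than those without H3K27me3, with median widths of 832 and 279 bp and median folds of 5.81 and 3.56. At equal width the folds were closer: 7.75 against 6.29 at 1 to 2 kb, and 3.24 against 3.24 below 250 bp. H3K4me3 regions with H3K27me3 on H3K9me3 alone had a median width of 276 bp and a median fold of 3.43.

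H3K27ac, the mark of active promoters, was less frequent on H3K4me3 that carried H3K27me3. It lay on 35.0% of the H3K4me3 regions without H3K27me3 (interval 34.8 to 35.2), on 28.9% of those with H3K27me3 off H3K9me3 alone (28.3 to 29.5) and on 13.6% of those with H3K27me3 on H3K9me3 alone (13.2 to 14.01), with shifted levels of 5.11%, 9.64% and 5.86%. The same order held in each width class up to 5 kb. H3K27ac lay on 24.8%, 6.47% and 5.80% of the regions narrower than 250 bp, on 50.1%, 28.7% and 23.5% of those of 500 to 1000 bp, on 61.9%, 44.2% and 35.6% of those of 1 to 2 kb, and on 71.9%, 45.3% and 32.9% of those of 2 to 5 kb. From the H3K27me3 side, among regions off H3K9me3 with H3K4me3, H3K27ac lay on 39.2% below 250 bp, 27.4% at 500 to 1000 bp, 9.81% at 1 to 2 kb and 5.54% at 2 to 5 kb. Over all regions off H3K9me3, with or without H3K4me3, it lay on 18.8% below 500 bp, 20.1% at 500 to 1000 bp, 9.16% at 1 to 2 kb and 5.47% at 2 to 5 kb. In regions wholly inside H3K9me3 it lay on 2.66%, 2.58%, 2.43% and 2.35% at these widths.

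The ESC lists set the same classes apart. ESC H3K27me3 lay on 66.5% of the iPSC H3K27me3 regions off H3K9me3 with H3K4me3 (interval 65.8 to 67.1, shifted 4.04%) and on 29.9% of those without H3K4me3 (29.1 to 30.7, shifted 3.06%). On H3K9me3 it lay on 24.04% of those with H3K4me3 (23.4 to 24.7, shifted 4.12%). It lay on 3.07% of those without H3K4me3 (2.96 to 3.19), within the range of the shifts (2.96 to 3.78). This last kind, the largest of the 4, thus met ESC H3K27me3 at the shifted level, while 89.1% of it lay on ESC H3K9me3 (shifted 13.9%). By width, ESC H3K27me3 lay on 94.8% of the regions of 1 to 2 kb off H3K9me3 with H3K4me3 and on 98.6% of those of 2 to 5 kb. In the ESC lists themselves, split by the ESC H3K9me3 list, H3K4me3 lay on 47.2% of 40032 H3K27me3 regions off H3K9me3 (interval 46.7 to 47.7, shifted 12.7%) and on 51.4% of 11118 on H3K9me3 (50.5 to 52.4, shifted 17.4%). The wide gap between the shares of the classes in iPSC, 58.4% against 18.5%, was thus not seen in the ESC shares. By ratio to the shifts the ESC classes stood at 3.73 off and 2.96 on H3K9me3, against 4.93 and 1.60 in iPSC. That order was the same in both cell types, with a smaller gap in ESC. By sequence, H3K4me3 covered 39.1% of ESC H3K27me3 off H3K9me3 and 45.5% on it. The classes were not matched for width in this comparison. This is a difference between single lists, and cell type and line cannot be told apart.

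The widest places show these patterns one by one, in 1-based coordinates of the lists. No source used here names their genome build. Because the gene table at hand is of another assembly, no gene is named. The widest H3K27me3 region off H3K9me3 with H3K4me3 lay on chromosome 12 from 108290961 to 108323606 (32.6 kb). It held 22 H3K4me3 regions over 73.8% of its length and reached 1902 and 1357 bp past the outermost of them. The next, on chromosome 7 from 64073439 to 64100241 (26.8 kb), held 19, of which the first began 806 bp before it. The next, on chromosome 11 from 114229674 to 114255174 (25.5 kb), held 13 over 85.7% of its length. All 3 were free of H3K27ac and wholly covered by ESC H3K27me3.

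The widest H3K27me3 regions on H3K9me3 with H3K4me3 also held many H3K4me3 regions. H3K9me3 covered a minor part of each, above its 6.96% of the autosomes. The region on chromosome 11 from 50006725 to 50132198 (125.5 kb) held 99 H3K4me3 regions over 71.3% of its length and had 13.7% H3K9me3. Those on chromosome 16 from 30198926 to 30279709 (80.8 kb) and on chromosome 3 from 84142420 to 84196360 (53.9 kb) held 78 and 41, with 13.4% and 23.1% H3K9me3. In all 3 the ends of both marks fell within 458 bp of each other, and ESC H3K27me3 covered 99.6% or more.

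Single H3K4me3 regions wholly inside H3K27me3 off H3K9me3 were widest on chromosome 3 from 103185052 to 103191302 (6.25 kb), chromosome 9 from 109658112 to 109664264 (6.15 kb) and chromosome 15 from 39132195 to 39138306 (6.11 kb). Around the last of these H3K27me3 reached 6253 and 4365 bp further, and around the first 2611 and 340 bp. Inside H3K27me3 on H3K9me3, the widest H3K4me3 region of the list lay on chromosome 2 from 148985696 to 149001188 (15.5 kb), in an H3K27me3 region of 18.9 kb. The next were on chromosome 6 from 1716332 to 1725618 (9.29 kb) and on chromosome 4 from 154765983 to 154775153 (9.17 kb). The last was itself free of H3K9me3 although its H3K27me3 region, of 30.3 kb, touched it. The converse nesting was widest on chromosome 15 from 5370515 to 5378983, where 8.47 kb of H3K27me3 lay inside 10.4 kb of H3K4me3. It was followed by chromosome 7 from 117644717 to 117650937 (6.22 kb inside 13.2 kb) and chromosome 9 from 93249907 to 93256018 (6.11 kb inside 7.81 kb).

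The widest H3K27me3 regions off H3K9me3 were narrower without H3K4me3 than with it, and the widest H3K4me3 regions narrower without H3K27me3 than with it. H3K27me3 off H3K9me3 without H3K4me3 was widest on chromosome 1 from 38005157 to 38010748 (5.59 kb), on chromosome 19 from 4294579 to 4298932 (4.35 kb) and on chromosome 1 from 1977043 to 1980492 (3.45 kb). ESC H3K27me3 covered 100% and 99.3% of the first 2 of these and none of the last. H3K4me3 without H3K27me3 was widest on chromosome 7 from 121645313 to 121653464 (8.15 kb), on chromosome 8 from 9057289 to 9063357 (6.07 kb) and on chromosome 7 from 136038364 to 136044013 (5.65 kb). H3K27ac covered 28.4%, 23.7% and 3.35% of these.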

How the data were processed

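ChIP-seq peak lists of baboon iPSC, 1 per mark, were analysed on chromosomes 1 to 20, with ESC lists for comparison. The submitters' processing notes name MACS2, SAMtools 1.10 and deepTools. Aligner, build, peak thresholds and the pooling of libraries: not given in the sources used here. For each peak the deposited lists hold a fold enrichment over background, a −log10 q value and, for narrow peaks, the offset of the summit as the authors' peak caller gave them. Each list also has a −log10 p column, and these 8 stayed unused. No read counts were analysed, so depth behind a peak is unknown here.

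Overlap meant at least 1 bp. Shares were given with 95% Wilson intervals, which cover counting error only, and with the mean and range over 100 circular shifts of 1 list within its chromosomes by at least 1 Mb. Shifted levels are a description, with no p-value. Interval functions were tested on simulated data. Python 3.11.15, numpy 2.4.6, pandas 2.3.3, scipy 1.17.1 and matplotlib 3.10.9 were used. Places were named by width, the 3 widest of each of 7 kinds. Alternatives were joining of peaks within 1 or 3 kb, firm and strict q values, overlap of at least 50% of the narrower region, H3K9me3 cover of at least 50%, shifts of 50 to 500 kb, and leaving out chromosome 19. Members, classes and alternatives were chosen with earlier results of these data known.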

Additional observations from a re-analysis of the deposited data

How the results depend on the processing

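No paired analysis was possible because each mark has 1 iPSC list, with no replicate lists. In every alternative run, the share of H3K27me3 regions with H3K4me3 stayed higher off H3K9me3 than on it, both ratios to the shifts stayed above 1, and the median end distance stayed negative off H3K9me3 and positive on it. A positive median on H3K9me3 was also found in shifted lists under the main setting (29 to 44 bp). The alternatives have no shifted median distance. Values are given below in the order off H3K9me3, then on it; the cause of each move was not tested. Those not listed moved by less than their counting interval.

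The share of H3K27me3 regions with H3K4me3 was 21.6% on H3K9me3 with peaks joined within 1 kb, 62.7% and 26.8% within 3 kb, 65.99% and 15.5% with firm peaks, 61.9% and 10.5% with strict peaks, 50.03% and 16.95% with an overlap of 50% of the narrower region, and 54.6% and 16.8% with H3K9me3 cover of at least 50%. The ratio to the shifts was 4.45 and 1.54 with joining within 1 kb, 3.66 and 1.41 within 3 kb, 5.62 and 1.50 with firm peaks, 6.86 and 1.55 with strict peaks, 5.46 and 1.90 with the wider overlap, 4.35 and 1.49 with H3K9me3 cover, 3.95 and 1.71 with shifts of 50 to 500 kb, and 5.04 and 1.64 without chromosome 19.

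The share of H3K4me3 regions on H3K27me3 was 6.60% and 9.81% with joining within 1 kb, 12.9% on H3K9me3 within 3 kb, 6.59% and 5.39% with firm peaks, 6.99% and 2.78% with strict peaks, 5.80% and 7.49% with the wider overlap, 9.39% and 6.03% with H3K9me3 cover, and 6.93% and 8.20% without chromosome 19. Of these, the order of the classes turned with firm peaks, strict peaks and H3K9me3 cover.

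H3K4me3 regions wholly inside H3K27me3 made up 7.61% and 39.6% with joining within 1 kb, 5.999% and 35.3% within 3 kb, 28.1% and 53.2% with firm peaks, 33.8% and 55.8% with strict peaks, and 31.1% and 44.1% with H3K9me3 cover. H3K27me3 regions wholly inside H3K4me3 made up 61.98% and 20.2%, 70.8% and 26.4%, 33.8% and 12.6%, 27.8% and 18.8%, and 36.6% and 12.97% under the same alternatives. The median end distance was −642 and 41 bp with joining within 1 kb, −1083.5 and 17 bp within 3 kb, 33 bp on H3K9me3 with firm peaks, −115.5 bp off it with strict peaks, and −100 and 30 bp with H3K9me3 cover.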

Other observations

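iPSC H3K27me3 regions off the iPSC H3K9me3 list were not all off the ESC one. ESC H3K9me3 lay on 42.5% of the regions off iPSC H3K9me3 without H3K4me3 (interval 41.7 to 43.4, shifted 12.2%) and on 12.4% of those with H3K4me3 (11.9 to 12.9, shifted 16.2%). ESC H3K4me3 lay on 91.3% of the H3K27me3 regions off H3K9me3 with iPSC H3K4me3 (shifted 13.5%) and on 74.05% of those on H3K9me3 with it (shifted 14.4%).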
